A study of Mus musculus with 84 samples.

Results

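Expression of 8 genes that mark oligodendrocyte precursors and the oligodendrocyte lineage, *Pdgfra*, *Cspg4*, *Sox10*, *Olig1*, *Olig2*, *Nkx2-2*, *Gpr17* and *Bcas1*, was followed in populations sorted as astrocytes. The genes were chosen by name, with earlier results of these data known. All 8 were matched by Ensembl identifier among the 48526 genes measured in the EAE experiment and among the 25773 genes measured in the subtype experiment, and all 8 had enough counts to be tested in every comparison.

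Experimental autoimmune encephalomyelitis (EAE) is a mouse model in which the immune system is directed against myelin. 10-week-old female C57BL/6 mice were immunized with a peptide of myelin oligodendrocyte glycoprotein in complete Freund's adjuvant and received pertussis toxin, and were killed at score 1 (E1, limp tail), at score 4 (E4, complete paralysis of the hind legs) or in the chronic stage (Ech), while unimmunized mice were the controls (C). Cells without CD11B and CD45 but with the astrocyte surface antigen ACSA-2 were sorted on the glutamate transporter GLAST, with cells of at most 2 mice per library. This gave 23 libraries of hindbrain GLASTneg cells (5 C, 6 E1, 6 E4 and 6 Ech), 21 of hindbrain GLASTpos cells (5 C, 6 E1, 6 E4 and 4 Ech) and 22 of spinal cord GLASTneg cells (5 C, 5 E1, 6 E4 and 6 Ech). The subtype experiment held 3 libraries from untreated FVB/N mice for each of 5 sorted populations of forebrain, hindbrain and spinal cord. It also held 3 libraries of astrocytes cultured from the cerebrum of newborn C57BL/6J mice, which are the cells left in the flask after microglia had been shaken off. The study set out to describe how such astrocyte populations differ and how they respond to EAE.

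Oligodendrocyte precursors are dividing glial cells of the adult brain and spinal cord that can become myelinating oligodendrocytes. They carry the PDGF receptor alpha (*Pdgfra*) and the proteoglycan NG2 (*Cspg4*) at their surface, and both are lost as the cells commit. The transcription factors *Olig1*, *Olig2* and *Sox10* are kept along the whole lineage, *Nkx2-2* is known for the step from precursor to oligodendrocyte, and *Gpr17* (a G protein-coupled receptor) and *Bcas1* mark cells that have committed and are about to make myelin. None of these is a textbook astrocyte marker, although *Olig2* is also found in some astrocytes and *Sox10* in Schwann cells.

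On GRCm38, the build of the counts, *Pdgfra* (ENSMUSG00000029231) lies at chr5:75152292-75198215 on the plus strand and *Cspg4* (ENSMUSG00000032911) at chr9:56865033-56899870 on the plus strand. *Sox10* (ENSMUSG00000033006) spans chr15:79154908-79165240 on the minus strand. *Olig2* (ENSMUSG00000039830, chr16:91225457-91228677) and *Olig1* (ENSMUSG00000046160, chr16:91269772-91271933) lie 41094 bp apart on the plus strand, with 1 annotated gene (Gm37016) between them. *Nkx2-2* (ENSMUSG00000027434, chr2:147177546-147194243) and *Bcas1* (ENSMUSG00000013523, chr2:170346991-170427845) are on the minus strand of chromosome 2, and *Gpr17* is ENSMUSG00000052229. The annotation places genes on the opposite strand that overlap *Pdgfra* (Gm42802 and Gm42803), *Olig1* (Gm15966), *Nkx2-2* (Nkx2-2os and 6430503K07Rik), *Gpr17* (*Lims2*) and *Bcas1* (Bcas1os1 and Bcas1os2). It is not stated whether strand was used in counting, so the counts of these 5 genes may include or lose reads of their antisense partners.

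Promoter sequences, from 250 bases before to 50 bases after the RefSeq transcription start on GRCm38.p6, were at hand for 4 of the 8 genes, the precursor surface genes *Pdgfra* and *Cspg4* and the transcription factors *Olig2* and *Nkx2-2*, and are shown as the sequence at their start sites. Capitals mark matches on either strand to the E-box CANNTG, the motif class that bHLH proteins such as the OLIG factors bind, or to ACAAAG or ACAATG, cores of SOX factor sites. The windows are chr5:75152001-75152300 (plus strand) for *Pdgfra*, chr9:56864854-56865153 (plus) for *Cspg4*, chr16:91225300-91225599 (plus) for *Olig2* and chr2:147186353-147186652 (minus) for *Nkx2-2*, each printed 5′ to 3′ along the gene.
Pdgfra: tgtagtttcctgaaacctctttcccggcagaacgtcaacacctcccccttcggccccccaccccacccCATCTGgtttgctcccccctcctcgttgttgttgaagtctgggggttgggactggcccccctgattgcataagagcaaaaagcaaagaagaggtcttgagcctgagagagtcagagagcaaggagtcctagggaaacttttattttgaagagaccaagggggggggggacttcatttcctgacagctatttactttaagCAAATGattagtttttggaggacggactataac
Cspg4: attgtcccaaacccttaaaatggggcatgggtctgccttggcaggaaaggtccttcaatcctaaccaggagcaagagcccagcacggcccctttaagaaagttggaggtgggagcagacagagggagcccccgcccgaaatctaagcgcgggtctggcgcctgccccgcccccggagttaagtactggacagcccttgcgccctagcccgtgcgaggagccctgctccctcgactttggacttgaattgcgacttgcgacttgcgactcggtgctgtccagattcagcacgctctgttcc
Olig2: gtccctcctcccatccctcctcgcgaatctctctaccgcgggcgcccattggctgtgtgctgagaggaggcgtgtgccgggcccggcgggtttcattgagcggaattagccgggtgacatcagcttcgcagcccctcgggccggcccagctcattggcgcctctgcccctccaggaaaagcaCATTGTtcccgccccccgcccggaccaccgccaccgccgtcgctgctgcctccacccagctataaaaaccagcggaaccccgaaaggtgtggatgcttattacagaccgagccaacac
Nkx2-2: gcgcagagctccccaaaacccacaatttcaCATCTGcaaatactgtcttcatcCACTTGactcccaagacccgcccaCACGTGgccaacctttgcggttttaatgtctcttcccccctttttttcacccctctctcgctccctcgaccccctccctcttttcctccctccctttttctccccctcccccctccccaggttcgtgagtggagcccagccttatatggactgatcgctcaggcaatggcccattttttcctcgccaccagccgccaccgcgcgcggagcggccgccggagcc
The *Pdgfra* window held 2 E-boxes and the *Nkx2-2* window 3, *Olig2* had 1 ACAATG core on the opposite strand, and no match was found in the *Cspg4* window. Among 32851 RefSeq promoters of the same length, 72.3% held an E-box, 18.7% ACAAAG and 12.6% ACAATG, so such matches are common and are given as a description only. *Sox10*, *Olig1*, *Gpr17* and *Bcas1* are named without sequence.

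Each EAE library held between 1313682 and 4895220 counts (median 2936680), and 3 counts, taken as the floor of detection, were worth 0.613 to 2.28 CPM, the counts of a gene scaled to a common library total. Each sorted FVB/N library held between 416768 and 1269316 counts (median 907710), where 3 counts were worth 2.36 to 7.2 CPM. Such floors cover counting error only, as the reads carried no molecular identifiers that would tell copies of 1 molecule apart. Libraries read the 3′ end of transcripts, and levels were compared between samples, not between genes. CPM used edgeR's TMM scaling and are given as mean ± SD where a mean is printed. The 23324 genes of the EAE experiment were tested together by edgeR's two-sided quasi-likelihood test, and a gene was called at a Benjamini-Hochberg adjusted p under 0.05 with a log2 fold change above 1 or below -1.

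The labelled cell type was checked first. *Atp1b2*, which encodes the ACSA-2 antigen used for the sort, measured 5175 to 7706 CPM in the 5 spinal cord control libraries, 103 to 599 CPM at E4 and 228 to 609 CPM at Ech. The summed level of 7 astrocyte markers moved likewise in spinal cord, from 6536 to 9632 CPM in C to 1721 to 11544 CPM at E1, 185 to 1086 CPM at E4 and 257 to 681 CPM at Ech, whereas it stayed between 6320 and 17438 CPM in all hindbrain groups. All 7 were called lower in spinal cord at E4 and at Ech, where 2598 and 2233 of all 23324 genes tested were called lower. The GLAST gene *Slc1a3* followed the sort, with 5485 to 9085 CPM in hindbrain GLASTpos controls, 1137 to 1771 CPM in hindbrain GLASTneg controls and 130 to 215 CPM in spinal cord controls. For 1 spinal cord library at E1 (replicate 1) the title and the region field disagree. Its summed level of 5 Hox genes of the trunk was 178.7 CPM, against 58.9 to 250 CPM in the group and at most 11 CPM in any hindbrain group, and the title was followed. Titles also end in an S and a number whose meaning is not stated. It was read here, as an assumption, as a number on the sample sheet of the sequencing run and treated as a possible batch. It was at most 56 in all 23 hindbrain GLASTneg libraries and at least 57 in all 21 hindbrain GLASTpos libraries and all 5 spinal cord controls, while 1 of 5 E1, 5 of 6 E4 and 2 of 6 Ech spinal cord libraries had a number up to 56.

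In unimmunized mice, expression of 7 of the 8 genes was higher in spinal cord GLASTneg than in hindbrain GLASTneg libraries, where 2.62% of all genes tested were called higher, and none was lower. *Pdgfra* measured 72.9, 72.8, 61.3, 44.3 and 51.9 CPM in the spinal cord controls and 2.12, 5.52, 1.33, 1.73 and 1.12 CPM in the hindbrain controls. The groups were far apart, with a log2 fold change of 4.63 ± 0.66 (SE, adjusted p = 4.02e-07). *Gpr17* measured 314, 418, 153, 91.7 and 175 CPM in spinal cord and 11, 3.68, 5.33, 8.66 and 7.31 CPM in hindbrain, a log2 fold change of 4.97 ± 0.68 (adjusted p = 1.38e-07). The lowest spinal cord library was thus above every hindbrain library for both the precursor receptor and the receptor of committed cells. In a bulk library, fewer cells of a type and less RNA per cell cannot be told apart.

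The other 5 of the 7 genes also did not overlap between these groups. The share of all genes without overlap was not counted, here or in the comparisons below, so separate ranges are given as a description. *Sox10* ranged from 119 to 334 CPM in spinal cord and from 16.6 to 30.6 CPM in hindbrain (log2 fold change 2.98 ± 0.47, adjusted p = 3.38e-06). *Bcas1* ranged from 94.7 to 226 and from 15.2 to 37.4 CPM (2.40 ± 0.44, adjusted p = 7.05e-05), and *Cspg4* from 24.3 to 39.7 and from 2.55 to 10.7 CPM (2.39 ± 0.60, adjusted p = 0.00557). The differences of *Olig1* (1.54 ± 0.32, adjusted p = 0.00054) and *Olig2* (1.34 ± 0.34, adjusted p = 0.00558) were smaller, and both genes were well expressed in hindbrain GLASTneg controls too, at 193 to 290.3 CPM and 246 to 315 CPM. *Nkx2-2* ranged from 7.54 to 49.6 CPM in spinal cord and from 13.8 to 30.6 CPM in hindbrain (log2 fold change -0.07 ± 0.42, adjusted p = 1). The median log2 fold change was 2.40 over the 8 genes and 0.00 over all genes tested. Genes of myelin and of mature oligodendrocytes stood in the same direction, since 10 of 10 were higher in spinal cord (median log2 fold change 2.64), among them *Mbp*, which encodes myelin basic protein, at 2.63. Of 12 further precursor genes 6 were higher and 2 lower, with *Matn4* at 2.63 and *C1ql1* at 4.05 but *Ptprz1* at -1.45. In the controls, region and sheet number divide the libraries in the same way and cannot be told apart. With the sheet number as a term, which the spinal cord libraries of EAE mice estimate, 5 genes were called, and *Cspg4* (2.14, adjusted p = 0.139) and *Olig2* (1.24, adjusted p = 0.121) were not.

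**Figure D1:**
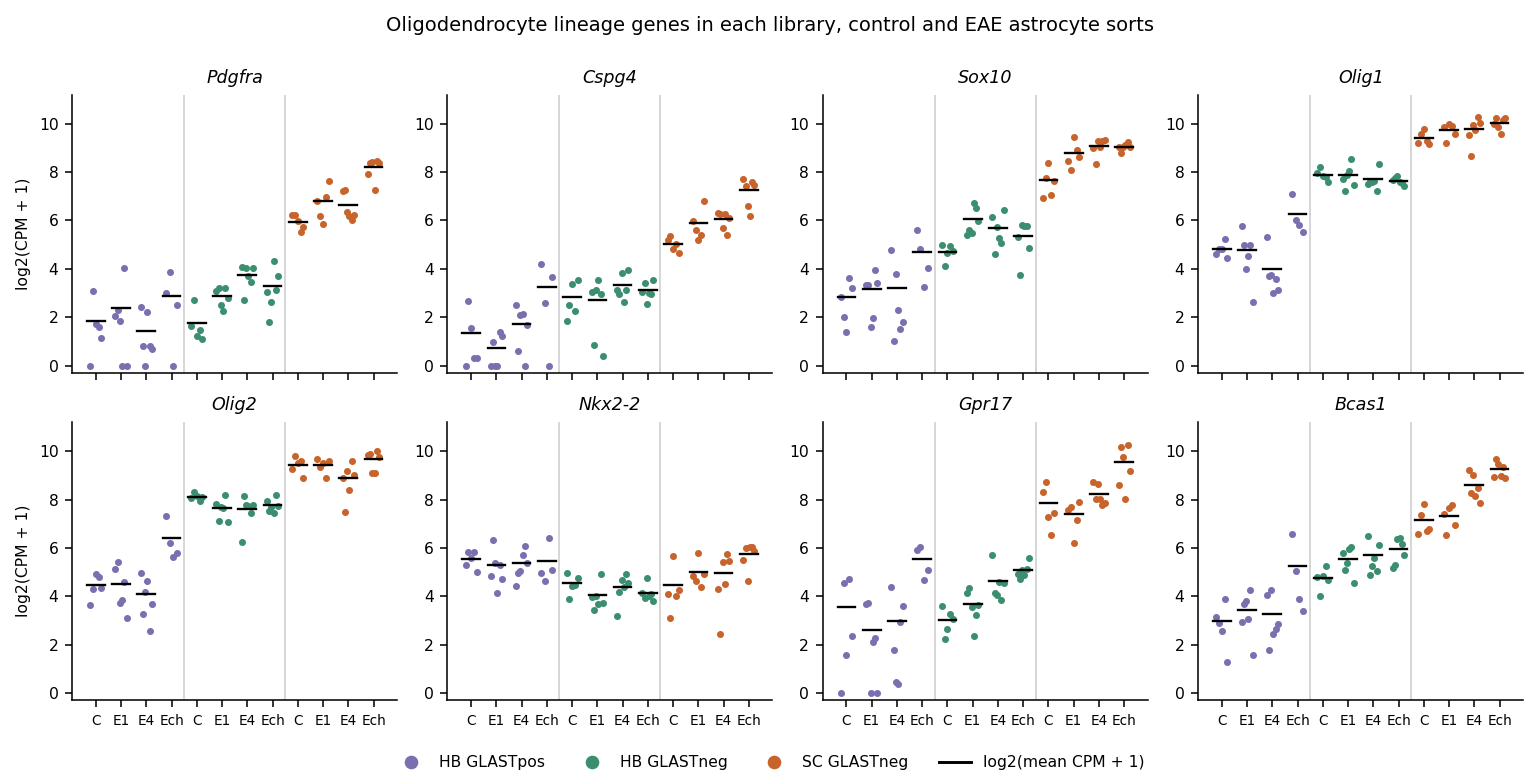
Expression of the 8 genes in the 66 EAE libraries as log2(CPM + 1), 1 panel per gene, with 1 point per library for the 12 groups on the horizontal axis. For all genes but *Nkx2-2* the means of the 4 spinal cord groups take the first 4 places, although single libraries overlap hindbrain libraries for *Olig2* and *Bcas1*, and *Pdgfra* and *Cspg4* are highest in spinal cord at Ech, with medians of 327 and 172 CPM.

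In the hindbrain of unimmunized mice, 5 of the 8 genes were higher in GLASTneg than in GLASTpos libraries (7.06% of all genes were called higher) and none was lower. *Olig2* measured 264, 315, 279, 246 and 272 CPM in GLASTneg and 11.4, 19, 29.0, 27.2 and 19.1 CPM in GLASTpos libraries, a log2 fold change of 3.69 ± 0.37 (adjusted p = 6.42e-12). *Olig1* measured 249, 290.3, 224, 219 and 193 CPM and 23.3, 27.3, 27.1, 36 and 20.9 CPM (3.12 ± 0.34, adjusted p = 8.43e-11). Both OLIG genes thus separated the sorted populations without overlap. *Sox10* (16.6 to 30.6 against 1.63 to 11.4 CPM, 2.00 ± 0.49, adjusted p = 0.00239) and *Bcas1* (15.2 to 37.4 against 1.47 to 14 CPM, 1.93 ± 0.47, adjusted p = 0.00195) did not overlap either. *Cspg4* was near the floor in GLASTpos controls, at 0, 5.31, 1.96, 0.254 and 0.245 CPM against 2.55 to 10.7 CPM, and its call was narrow (2.02 ± 0.70, adjusted p = 0.0431). It was lost when GLASTneg replicate 3, 4 or 5 or GLASTpos replicate 1, 3, 4 or 5 was left out, with adjusted p up to 0.127. *Pdgfra* and *Gpr17* were low in both and were not called (-0.08 ± 0.75 and -0.57 ± 0.65, adjusted p = 1 and 0.632). *Nkx2-2* had the opposite order, with 38, 55.7, 46.7, 55.9 and 30.7 CPM in GLASTpos and 13.8 to 30.6 CPM in GLASTneg controls, without overlap, but at -1.01 ± 0.41 (adjusted p = 0.092) it was not called. With only these 2 groups in the fit it was called lower (-1.04, adjusted p = 0.00848). Beside these, 9 of 10 myelin genes were higher and 1 was lower in GLASTneg controls, and 4 of 7 astrocyte markers were higher. All GLASTneg libraries of hindbrain differ from all GLASTpos libraries in sheet number too. With that number as a term *Olig1*, *Olig2* and *Bcas1* were called, and *Cspg4* and *Sox10* were not.

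In spinal cord at Ech 6 of the 8 genes were higher than in controls, against 5.16% of all genes, at E4 2 were higher (*Sox10* and *Bcas1*, against 6.8%), and at E1 none was called (6.17% of all genes were called in either direction, and 1 of the 8 genes had an unadjusted p under 0.05). DESeq2's Wald test also called none at E1. The share of all genes with an unadjusted p under 0.05 was not counted for any comparison, so such numbers are given as a description. None of the 8 was called lower at any stage. The median log2 fold change of the 8 genes was 0.42 at E1, 0.60 at E4 and 1.55 at Ech, and that of all genes was 0 at each stage.

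*Pdgfra*, the receptor through which PDGF drives precursors to divide, measured 111, 71.6, 57.3, 122 and 194 CPM at E1, which overlapped the controls (44.3 to 72.9 CPM). At E4 it ranged from 63.5 to 151 CPM with a median of 77 CPM. At Ech it ranged from 153 to 352 CPM with a median of 327 CPM, so every Ech library was above every control and every E4 library. The log2 fold change against controls was 0.88 ± 0.51 at E1 (adjusted p = 0.27), 0.69 ± 0.49 at E4 (adjusted p = 0.325) and 2.26 ± 0.52 at Ech (adjusted p = 0.000628). *Pdgfra* was called at Ech under all 20 settings tried, with log2 fold changes between 2.16 and 2.40 and adjusted p between 1.52e-07 and 0.00374. Over the 4 Ech and 5 control libraries with a sheet number of at least 57 it was 2.32 (adjusted p = 6.3e-07).

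*Cspg4*, which encodes the NG2 proteoglycan, was called at Ech as well. The controls measured 35.7, 39.7, 27.2, 31.1 and 24.3 CPM and the E1 libraries 61, 46.9, 35.2, 41.4 and 109.9 CPM. At E4 the range was 40.9 to 79 CPM (median 71.3 CPM) and at Ech 71.8 to 208 CPM (median 172 CPM). Neither stage overlapped the controls, but only Ech was called, with a log2 fold change of 2.26 ± 0.54 (adjusted p = 0.00105), against 1.03 ± 0.52 at E4 (adjusted p = 0.139) and 0.90 ± 0.54 at E1 (adjusted p = 0.281). All 20 settings called *Cspg4* at Ech (2.13 to 2.42, adjusted p 1.4e-06 to 0.00493).

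Among the transcription factors, *Sox10*, a driver of myelin genes, was called at E4 and at Ech. It measured 119, 216, 334, 132 and 198 CPM in controls and 354, 272, 699, 482 and 395 CPM at E1, then 325 to 645 CPM at E4 (median 573 CPM) and 441 to 598 CPM at Ech (median 524 CPM). The E1 and E4 ranges touched the controls through control replicate 3, and the Ech range did not. The log2 fold change of *Sox10* was 1.43 ± 0.42 at E4 (adjusted p = 0.00785) and 1.39 ± 0.42 at Ech (adjusted p = 0.012), and at E1 it stood at 1.14 ± 0.43 (adjusted p = 0.0853). Control replicate 3 was also the control with the highest sum of 10 myelin genes (41875 CPM, where the group median was 18344 CPM), and without it *Sox10* was called at E1 as well (1.39, adjusted p = 0.0446). With the sheet number as a term the E4 call was lost (1.23, adjusted p = 0.109) and the Ech call kept (1.30, adjusted p = 0.0285).

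*Olig1* and *Olig2*, which specify the lineage, were not called at any stage. *Olig1* measured 591, 751, 879, 619 and 573 CPM in controls, 918, 586, 998, 957 and 748 CPM at E1, 404 to 1220.3 CPM at E4 (median 918 CPM) and 767 to 1218 CPM at Ech (median 1069 CPM). Its log2 fold change was 0.30 ± 0.31, 0.36 ± 0.30 and 0.61 ± 0.30 (adjusted p = 0.615, 0.419 and 0.143). *Olig2* measured 617, 880.1, 736, 763 and 479.6 CPM in controls and 818, 645, 724, 468 and 779 CPM at E1. The 6 E4 libraries spread from 180.2 to 782 CPM (median 496 CPM) and the Ech libraries from 545 to 1038 CPM (median 886 CPM). All ranges overlapped, with log2 fold changes of -0.02 ± 0.33, -0.54 ± 0.31 and 0.22 ± 0.32 (adjusted p = 1, 0.21 and 0.733), so a modest change in either direction would not have been resolved.

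*Nkx2-2* was low in spinal cord controls at 15.9, 7.54, 49.6, 15.4 and 18.2 CPM, where replicate 3 stood apart. It measured 27.4, 24.2, 54.5, 19.9 and 29.2 CPM at E1, 4.49 to 53.0 CPM at E4 (median 31.5 CPM) and 24.1 to 65.7 CPM at Ech (median 60.5 CPM). It was called at Ech (1.30 ± 0.40, adjusted p = 0.0136), with ranges that overlapped through control replicate 3, and not at E1 or E4 (0.53 ± 0.41 and 0.51 ± 0.39, adjusted p = 0.453 and 0.375). *Nkx2-2* was not called at Ech over the libraries with a sheet number of at least 57 alone (1.11, adjusted p = 0.0858) or without control replicate 2 (1.13, adjusted p = 0.0504), and without control replicate 3 it was called at E4 too (1.11, adjusted p = 0.0453).

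Of the markers of committed cells, *Bcas1* measured 94.7, 165, 226, 104 and 109 CPM in controls and 167, 93, 198, 219 and 121 CPM at E1, which overlapped. It rose to 233 to 597 CPM at E4 (median 332 CPM) and 479.7 to 809 CPM at Ech (median 573 CPM), both above every control. The log2 fold change was 0.19 ± 0.41 at E1 (adjusted p = 0.908), 1.45 ± 0.40 at E4 (adjusted p = 0.00466) and 2.11 ± 0.41 at Ech (adjusted p = 5.34e-05), and all 20 settings called it at E4 and at Ech. *Gpr17* ranged from 91.7 to 418 CPM in controls. It measured 189.9, 207, 71.9, 140.4 and 241 CPM at E1, 220.4 to 427 CPM at E4 (median 259.9 CPM) and 258 to 1223 CPM at Ech (median 731 CPM). *Gpr17* was called at Ech only (1.70 ± 0.55, adjusted p = 0.0199), the Ech range overlapped the controls, and 15 of 20 settings kept the call, with adjusted p between 0.00109 and 0.0704. It was lost without control replicate 3, 4 or 5 or Ech replicate 2 or 5, each left out alone. At E1 and E4 its log2 fold change was -0.44 ± 0.55 and 0.37 ± 0.53 (adjusted p = 0.718 and 0.696).

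**Figure D2:**
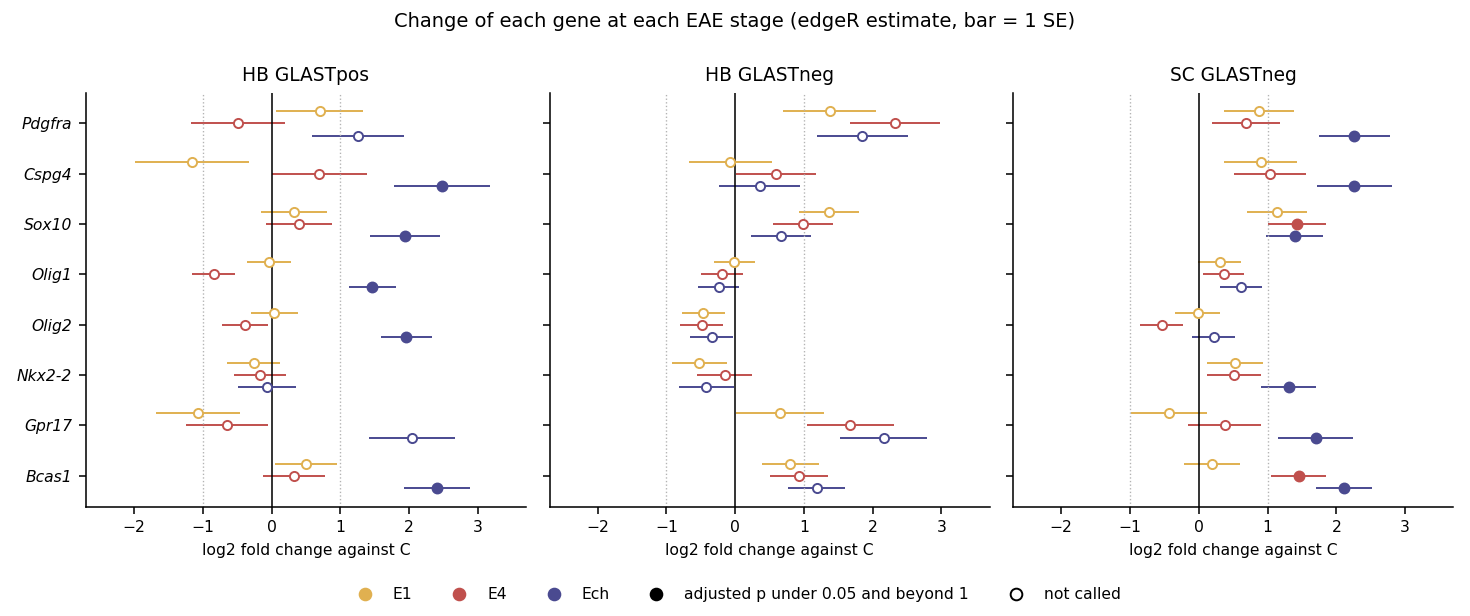
Log2 fold change against the controls of the same population, with bars of 1 SE, for the 8 genes at E1, E4 and Ech in spinal cord GLASTneg, hindbrain GLASTneg and hindbrain GLASTpos cells. Filled points passed both thresholds, which were 2 in spinal cord at E4, 6 in spinal cord at Ech and 5 in hindbrain GLASTpos at Ech.

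Set directly against E4, Ech showed higher *Pdgfra*, by a log2 fold change of 1.57 ± 0.47 (adjusted p = 0.0373), and none of the other 7 genes was called (1.95% of all genes were called higher). *Gpr17* (1.33 ± 0.51, adjusted p = 0.123) and *Cspg4* (1.23 ± 0.49, adjusted p = 0.137) came next, and *Sox10* stood at no change (-0.04 ± 0.39, adjusted p = 1). The *Pdgfra* call was lost when any 1 of 8 of the 12 libraries was left out, which were E4 replicates 3 to 6 and Ech replicates 2, 3, 5 and 6. It was also lost with DESeq2's Wald test and with the sheet number as a term (1.38, adjusted p = 0.223), a number that is up to 56 in 5 of the 6 E4 libraries.

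Other genes of the lineage were read from lists beside the 8. Of 12 further precursor genes, 9 were higher in spinal cord at Ech (median log2 fold change 2.06, where the median of all genes was 0), among them *Vcan* (versican, 2.71 ± 0.35), *Matn4* (2.33 ± 0.35), *Emid1* (2.28 ± 0.44) and *Cacng4* (1.54 ± 0.22). At E4 2 of these genes were higher (*Vcan* and *Matn4*) and *Ptprz1* was lower, and at E1 none was called. Set against E4, 7 of the 12 were higher at Ech. Of 10 genes of committed and premyelinating cells 4 were higher at Ech (*Fyn* 1.38 ± 0.21, *Sirt2* 1.12 ± 0.20, *Nkx6-2* 1.69 ± 0.45 and *Enpp6* 1.93 ± 0.55), and at E4 *Nkx6-2* and *Zfp488* were higher and *Tcf7l2* lower. Of 10 myelin genes 4 were higher at E1, 8 at E4 (*Mobp* 3.12 ± 0.47, *Cldn11* 2.72 ± 0.43) and 2 at Ech (*Cldn11* 1.71 ± 0.42, *Ermn* 1.36 ± 0.42), and *Mobp* and *Mal* were lower at Ech than at E4. Of the 3 PDGF genes *Pdgfa*, whose product is a ligand of the *Pdgfra* receptor, was higher at every stage (1.29 ± 0.33, 1.13 ± 0.32 and 1.52 ± 0.33). Of 8 regulators of oligodendrocyte differentiation that other glia also express, 5 were lower at Ech, among them *Hes1* (-4.52 ± 0.50) and *Id2* (-3.33 ± 0.33), which restrain differentiation, and *Sox9* (-4.21 ± 0.32), which is also an astrocyte marker. Of all 23324 genes tested, 2233 were called lower at that stage.

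Markers of other cells moved in the same libraries. In spinal cord from C to Ech, the summed level of 6 cell cycle genes went from 1.26 to 30.2 CPM in controls to 26.4 to 255 CPM at E1, 67.1 to 476 CPM at E4 and 313 to 798 CPM at Ech, and all 6 were called at Ech. The 12 myeloid markers summed to 14.4 to 44.6 CPM in controls, 42.1 to 153 CPM at E1, 117 to 4396 CPM at E4 and 51 to 169 CPM at Ech, where E4 replicate 2 was the highest and the E4 median was 141 CPM, with 3, 8 and 3 called higher at E1, E4 and Ech. The 10 myelin genes summed to 14358 to 41875 CPM in controls, 26912 to 62071 CPM at E1, 30361 to 77684 CPM at E4 and 25393 to 41609 CPM at Ech. The share of these shifts, and of the fall in astrocyte markers, in the differences of the 8 genes was not tested.

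**Figure D3:**
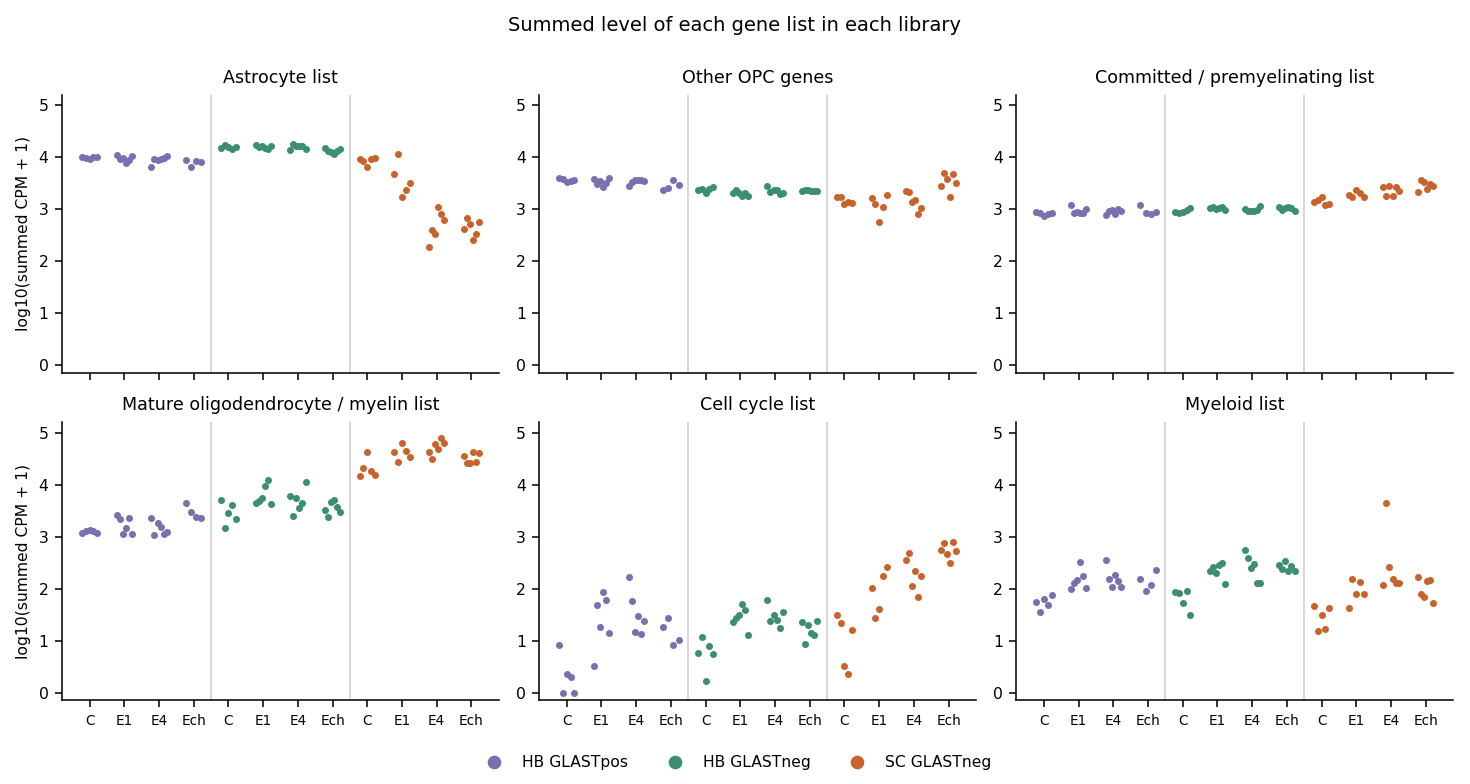
Summed expression of 6 gene lists in each EAE library as log10(summed CPM + 1), with the 12 groups on the horizontal axis. In spinal cord the astrocyte sum falls from at least 6536 CPM in controls to at most 681 CPM at Ech, while the cell cycle sum is between 313 and 798 CPM at Ech.

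In hindbrain GLASTneg cells none of the 8 genes was called at E1, E4 or Ech, where 0.643%, 0.729% and 0.193% of all genes were called. At an unadjusted p under 0.05 there were 2, 4 and 3 of the 8, numbers that cannot be set against these shares of called genes. DESeq2's Wald test called *Pdgfra* at E4 and none at E1 or Ech. *Pdgfra* ranged from 1.12 to 5.52 CPM in controls, from 3.78 to 8.19 CPM at E1, from 5.6 to 15.9 CPM at E4 and from 2.53 to 18.8 CPM at Ech. Every E4 library was above every control, at a log2 fold change of 2.33 ± 0.65 (adjusted p = 0.0794), on 2 to 12 counts in a control library and 14 to 42 at E4, and without control replicate 2 it was called (2.91, adjusted p = 0.0437). *Gpr17* ranged from 3.68 to 11 CPM in controls, from 13.3 to 51.7 CPM at E4 and from 25.3 to 46.4 CPM at Ech. Neither stage overlapped the controls, yet neither passed the test (1.67 ± 0.63 and 2.16 ± 0.63, adjusted p = 0.45 and 0.236). Under other settings *Gpr17* was called in 1 of 19 at E4 and in 2 of 19 at Ech, with adjusted p at Ech between 2.78e-05 and 0.745. *Sox10* went from 16.6 to 30.6 CPM in controls to 41.4 to 103 CPM at E1 without overlap (1.37 ± 0.44, adjusted p = 0.194), and *Bcas1* from 15.2 to 37.4 CPM to 35.3 to 84.9 CPM at Ech with overlap (1.18 ± 0.42, adjusted p = 0.653). Of 19 settings, 2 called *Sox10* at E1 and 1 called *Bcas1* at Ech. *Olig1*, *Olig2*, *Nkx2-2* and *Cspg4* stayed within 0.60 of no change on the log2 scale at all 3 stages. Beside them *Cldn11* and *Mobp* were called higher among the myelin genes at E1 and E4, and none of the 12 precursor genes was called.

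In hindbrain GLASTpos cells 5 of the 8 genes were higher at Ech (*Cspg4*, *Sox10*, *Olig1*, *Olig2* and *Bcas1*), against 1.21% of all genes, and none was called at E1 or E4 (1.49% and 2.03% of all genes). At an unadjusted p under 0.05 there were 0 at E1 and 1 at E4, and DESeq2's Wald test called none at either. *Olig2* measured 11.4, 19, 29.0, 27.2 and 19.1 CPM in controls and 157, 73.4, 47.7 and 54.5 CPM at Ech. *Olig1* measured 23.3, 27.3, 27.1, 36 and 20.9 CPM in controls and 136, 63.7, 55.2 and 44.7 CPM at Ech. Both OLIG genes were thus higher in every Ech library than in every control, at 1.96 ± 0.37 (adjusted p = 0.000918) and 1.47 ± 0.34 (adjusted p = 0.00988), although the levels remained under those of hindbrain GLASTneg controls.

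*Bcas1* measured 93.4, 32, 13.8 and 9.57 CPM at Ech and 1.47 to 14 CPM in controls (2.40 ± 0.48, adjusted p = 0.00202). *Sox10* measured 47.1, 27.3, 8.48 and 15.2 CPM and 1.63 to 11.4 CPM (1.94 ± 0.51, adjusted p = 0.0273), and *Cspg4* 17.2, 4.97, 0 and 11.8 CPM and 0 to 5.31 CPM (2.49 ± 0.70, adjusted p = 0.0472). These 3 genes overlapped the controls, and Ech replicate 1 was the highest library for all 5. *Gpr17* measured 60.1, 64, 24.3 and 32.6 CPM against 0, 22.7, 1.96, 25.1 and 4.17 CPM (2.04 ± 0.62, adjusted p = 0.0757), *Pdgfra* 6.89, 13.5, 0 and 4.66 CPM (1.26 ± 0.67, adjusted p = 0.293), and *Nkx2-2* stood at no change (-0.06 ± 0.43, adjusted p = 1). Without Ech replicate 1 only *Olig2* was called, and without Ech replicate 2, control replicate 1 or control replicate 3 the calls were *Olig1*, *Olig2* and *Bcas1*. *Sox10* was also lost without control replicate 2, *Cspg4* without control replicate 4 or 5 or Ech replicate 4, and *Gpr17* was called without control replicate 4 (2.66, adjusted p = 0.0275). At E4 *Olig1* (-0.84 ± 0.32, adjusted p = 0.149) was called lower without E4 replicate 1 (-1.43, adjusted p = 0.00309). *Olig2* was called under all 17 settings (1.46 to 2.15, adjusted p 1.02e-05 to 0.0354). Ech replicate 1 also had the highest sum of the 10 myelin genes, at 4399 CPM, while the group median was 2642 CPM and the controls had 1170 to 1336 CPM. Of those 10 genes 8 were called (median log2 fold change 2.42), *Mbp* at 2.40 ± 0.39 among them. Of the 12 precursor genes only *Neu4* was called (3.7 ± 0.84), of 7 astrocyte markers none, and of 5 neuronal markers 3. The part of these markers in the result was not tested.

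The response of spinal cord and hindbrain GLASTneg cells was compared as an interaction in the same fit. Of the 8 genes none was called at E1 or E4 (0.214% and 7.92% of all genes), with 0 and 1 at an unadjusted p under 0.05 and none by DESeq2's Wald test, and 1 at Ech (1.54% of all genes were called higher). At Ech *Nkx2-2* was higher by 1.72 ± 0.56 in spinal cord (adjusted p = 0.045). This call was lost when any 1 of 17 of the 22 libraries was left out and with the sheet number as a term. The differences for *Cspg4* (1.90 ± 0.79, adjusted p = 0.132), *Bcas1* (0.93 ± 0.57, adjusted p = 0.373) and *Pdgfra* (0.41 ± 0.87, adjusted p = 0.999) were not called. The rise of *Pdgfra* at Ech in spinal cord was thus not shown to differ from its change in hindbrain GLASTneg cells, where its level was far lower.

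Across the 12 group means, 7 of the 8 genes had the 4 spinal cord groups in their first 4 places. For all genes but *Sox10* the highest mean was that of spinal cord at Ech, and *Sox10* was highest at E4 (541 ± 121 CPM) with Ech next to it (525 ± 50.9 CPM, overlapping). The means of *Pdgfra* ran from 290.4 ± 78.1 CPM at Ech over 111 ± 53.5 at E1, 98.3 ± 40.3 at E4 and 60.7 ± 12.7 CPM in controls down to 12.4 ± 4.06 CPM in hindbrain GLASTneg cells at E4, and only that last step separated neighbours without overlap. *Nkx2-2* was the exception, since its second place was taken by hindbrain GLASTpos controls (45.4 ± 11.1 CPM) after spinal cord at Ech (53.1 ± 16.3 CPM), and all its neighbours overlapped. Over the 12 group means of log2(CPM + 1), Pearson's r between the other 7 genes was between 0.828 and 0.990, and that of *Nkx2-2* with each of them between -0.390 and 0.0256. These points share libraries, and r is given as a description.

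The genes with the profile most like each of the 8 over these 12 group means were looked up by Pearson's r among the 10971 genes whose mean reached 5 CPM. *Enc1* (0.990) and *Susd5* (0.983) were closest to *Pdgfra*, and *Neu4* to *Cspg4* (0.984) and to *Gpr17* (0.989). *Elovl7* (0.997) and *Mbp* (0.993) were closest to *Sox10*. *Fam171b* (0.993), *Sox2ot* (0.990) and *Olig2* (0.990) were closest to *Olig1*, and *Matn4* (0.989) to *Bcas1*. *Nkx2-2* was closest to *Dnaja1*, a chaperone gene, and *Hnrnpa0*, an RNA-binding protein gene (both 0.964).

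**Figure D4:**
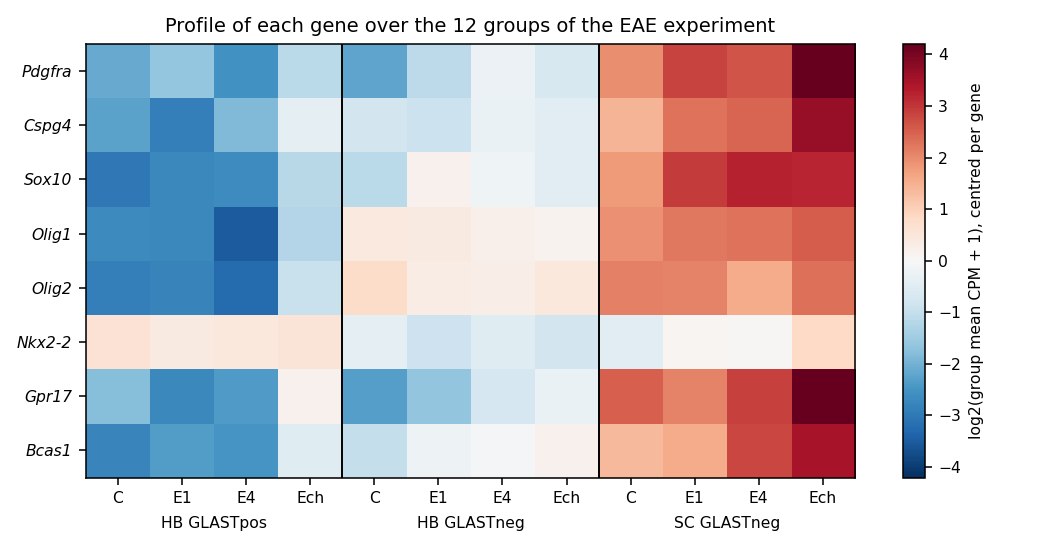
Mean expression of the 8 genes in the 12 EAE groups as log2(group mean CPM + 1), centred per gene so that the colour shows the difference from the mean of the gene over the groups. The first places belong to the spinal cord groups for all genes but *Nkx2-2*, whose mean is 45.4 CPM in hindbrain GLASTpos controls and 53.1 CPM in spinal cord at Ech.

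In the FVB/N experiment the group names in the labels and in a list of the study differ for 12 of 15 libraries. That list holds the 500 most expressed genes over all its sorted astrocyte populations. The trunk Hox genes summed to 414 to 504.2 CPM in the libraries labelled hindbrain GLASTneg and to 0 in all 3 labelled spinal cord GLASTneg, and 4 forebrain genes were highest in the libraries labelled hindbrain GLASTpos (673 to 761 CPM) and forebrain GLASTneg (478 to 554 CPM). These position genes thus go with the list and against the labels spinal cord GLASTneg, hindbrain GLASTneg and hindbrain GLASTpos. The labels are used here for naming only, with the other name beside. Each group was compared with the mean of the other 4 over 14957 genes.

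In the libraries labelled hindbrain GLASTneg, which the study's list calls spinal cord GLASTneg, 4 of the 8 genes were higher (2.83% of all genes). *Sox10* measured 79.5, 81.7 and 63.5 CPM, against 1.07 to 39.4 CPM in the 12 other libraries (log2 fold change 2.57 ± 0.41, adjusted p = 1.84e-06). *Olig1* measured 764, 451 and 348 CPM (1.63 ± 0.21, adjusted p = 1.19e-09) and *Olig2* 410.1, 245 and 237 CPM (1.41 ± 0.24, adjusted p = 7.78e-06). *Gpr17* was carried by 1 library, with 132, 2.92 and 2.35 CPM (3.94 ± 0.71, adjusted p = 2.64e-05), and without replicate 1 its log2 fold change was -0.10 and it was not called. *Pdgfra* measured 16.7, 4.38 and 7.05 CPM there and at most 5.39 CPM elsewhere (3.53 ± 1.26, adjusted p = 0.0898). Of the 10 myelin genes 8 were higher (median log2 fold change 2.50), among them *Cldn11* and *Mag*.

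In the libraries labelled spinal cord GLASTneg, which the list calls hindbrain GLASTpos, 3 of the 8 genes were lower (3.53% of all genes). *Sox10* measured 2.48, 2.95 and 1.07 CPM, all within 3 counts (-3.74 ± 0.67, adjusted p = 1.14e-05). *Olig2* measured 4.96, 35.4 and 55.9 CPM (-2.62 ± 0.32, adjusted p = 3.59e-10) and *Olig1* 44.6, 71.9 and 127 CPM (-1.75 ± 0.26, adjusted p = 1.33e-07). The OLIG genes and *Sox10* were thus lowest in the population whose *Slc1a3* was highest, at 9792 to 11217 CPM. Of the 10 myelin genes 7 were lower (median -2.30). None of the 8 genes was called in the libraries labelled forebrain GLASTneg (named alike in the list, 1.18% of all genes), forebrain GLASTpos (hindbrain GLASTneg in the list, 1.94%) or hindbrain GLASTpos (forebrain GLASTpos in the list, 2.49%). At an unadjusted p under 0.05 these had 3, 2 and 0, and DESeq2's Wald test called *Sox10* in the first and none in the others. Without replicate 3 of the libraries labelled spinal cord GLASTneg, *Bcas1* was called lower in the forebrain GLASTneg libraries (-1.50, adjusted p = 0.0141). *Cspg4*, *Nkx2-2* and *Bcas1* were not called in any of the 5 groups, with *Nkx2-2* between 9.40 and 27.0 CPM in all 15 libraries. *Pdgfra* was at or under 3 counts in 13 of 15 libraries and was not called in any group. At such counts a missing call does not show that its levels were equal.

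**Figure D5:**
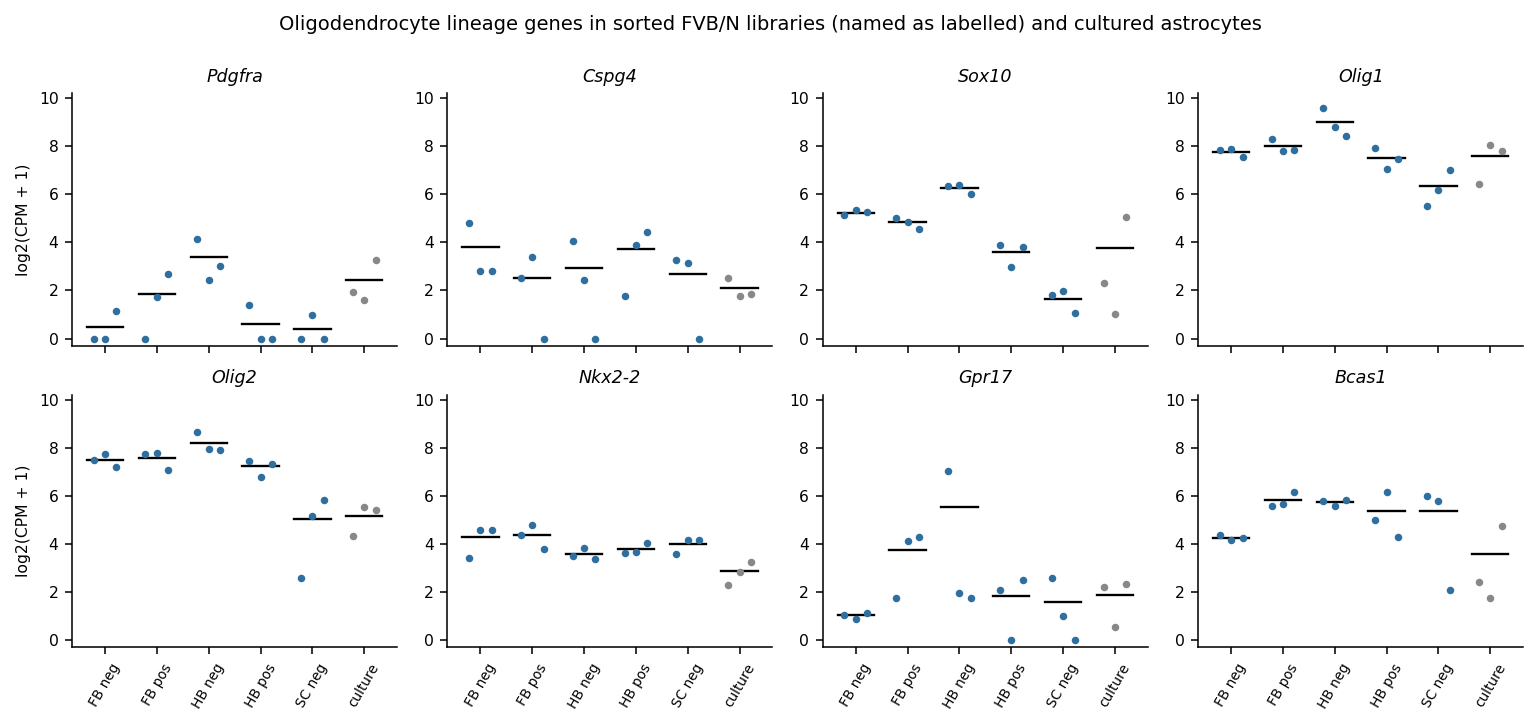
Expression of the 8 genes in the 15 sorted FVB/N libraries and the 3 cultured libraries as log2(CPM + 1), with the groups named as in the labels. These names differ from those of the study's list for 12 of the 15 libraries. *Olig1*, *Olig2* and *Sox10* are highest in the libraries labelled hindbrain GLASTneg, which the study's list calls spinal cord GLASTneg. *Gpr17* is high in 1 of these libraries, at 132 CPM.

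In astrocytes cultured from newborn mice 2 of the 8 genes were lower than in the mean of the 5 sorted groups (8.38% of 17126 genes were called lower), a comparison in which strain, age, method and culture cannot be told apart. The median log2 fold change was -1.10 over the 8 genes and 0.43 over all genes, and the latter was 0.32 with DESeq2's size factors. *Olig2* measured 19.1, 45.7 and 41.2 CPM (-1.94 ± 0.34, adjusted p = 9.76e-06) and *Bcas1* 4.38, 2.40 and 26.2 CPM (-1.80 ± 0.56, adjusted p = 0.00968). *Olig1* stayed at 85.9, 267 and 223 CPM (-0.14 ± 0.26, adjusted p = 0.733), and was not called. Replicate 3 was the highest of the cultured libraries for *Pdgfra*, *Sox10*, *Nkx2-2*, *Gpr17* and *Bcas1*, with *Sox10* at 32.4 CPM beside 3.98 and 1.03 CPM. Without replicate 1 or replicate 2 of the cultured libraries only *Olig2* was called, and without replicate 3 *Sox10* was called lower as well (-3.01, adjusted p = 0.000582). Of the 10 myelin genes 9 were lower (median -5.18), of 12 myeloid markers 11 were higher, and all 6 cell cycle genes were higher, and their part in the result was not tested.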

How the data were processed

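RNA of sorted or cultured cells was sequenced from the 3′ end (QuantSeq). The authors deposited raw counts per gene for 66 EAE, 15 sorted FVB/N and 3 cultured libraries, made by alignment to GRCm38 with HISAT 0.1.5, sorting with SAMtools and counting with HTSeq 0.6.1p1 in union mode, and the strand setting is not given in the sources used here. Counts per 3′ end were not divided by gene length.

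From the counts, genes with fewer than 10 counts in all were left out, libraries were scaled by TMM and tested with edgeR 4.0.16 (quasi-likelihood, all groups in 1 fit, two-sided) in R 4.3.3, and p-values were adjusted over all genes tested by the Benjamini-Hochberg method. Calls needed an adjusted p under 0.05 and a log2 fold change beyond 1. DESeq2 1.42.0, other scalings and filters, the assumed sample-sheet number as a term, blocks on the replicate number and on a bracket number of the titles, and 99 fits that left out 1 library each were tried beside this. The fit was tested on simulated data for spinal cord Ech against C and for the FVB/N libraries labelled hindbrain GLASTneg. At a simulated log2 fold change of 1.5 it called 55 and 58 of 100 changed genes, and at 3 it called 92 of 100 in both. It also called 5 and 7 unchanged genes. In these simulated data, genes with a moderate change were thus often not called. The simulation changed far fewer genes than the 3436 called in spinal cord at Ech. The adjusted p depends on that number, so the shares may not hold for the real comparisons. Tables and plots were made in Python 3.11.15 with pandas 2.3.3, numpy 2.4.6 and matplotlib 3.10.9.

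The 8 genes, the gene lists and the tests were chosen with earlier results of these data known. The text names the 8 genes in every comparison, from each list at most 4 called genes by adjusted p, up to 3 genes of the most like profile per gene, and *Slc1a3* and *Atp1b2* as checks of cell identity. Some genes of the lists are not reported here by name. Nothing in the labels says that libraries of a group came from separate animals or sorts beyond being separate samples, so p-values measure the spread between these samples. No 2 libraries within a group had identical counts, and nothing in the labels says that a replicate or bracket number marks a shared mouse, so libraries were not paired. The bracket number recurs across populations of a stage, and the tests across populations treat libraries that share it as independent. If it marks shared mice, those p-values do not account for it.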

Additional observations from a re-analysis of the deposited data

Results flagged for a closer look

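Of 96 sets of 4 to 6 libraries (8 genes in 12 groups), 10 held a highest library that stood apart from the rest by Dixon's criterion. Its nominal rate of about 1 set in 20 is for normally distributed values. Whether these CPM follow that distribution was not tested, so the number of sets is given as a description. *Nkx2-2* accounted for 5 of them. It measured 29.2 CPM in replicate 5 of hindbrain GLASTneg at E1 (the next library had 15.0 CPM) and 25.8 CPM in replicate 3 at Ech (next 16.8 CPM). In hindbrain GLASTpos at Ech *Nkx2-2* measured 85.3 CPM in replicate 3 (next 33.4 CPM). In spinal cord it measured 49.6 CPM in control replicate 3 (next 18.2 CPM) and 54.5 CPM in E1 replicate 3 (next 29.2 CPM).

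*Pdgfra* measured 5.52 CPM in replicate 2 of hindbrain GLASTneg controls (next 2.12 CPM) and 15.4 CPM in replicate 5 of hindbrain GLASTpos at E1 (next 3.93 CPM). *Olig1* measured 324 CPM in replicate 6 of hindbrain GLASTneg at E4 (next 197 CPM) and 38.7 CPM in replicate 1 of hindbrain GLASTpos at E4 (next 12.5 CPM). *Gpr17* measured 51.7 CPM in replicate 1 of hindbrain GLASTneg at E4 (next 23.1 CPM).

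Of 24 differences in response between spinal cord and hindbrain GLASTneg cells (8 genes at 3 stages), 1 passed the test of the difference itself. *Nkx2-2* at Ech differed by a log2 fold change of 1.72 (edgeR adjusted p = 0.045), and the call was lost in 17 of the 22 fits that left out 1 library.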

How the results depend on the processing

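Of 3664 values of single genes recomputed under other settings, 3548 kept their direction and their side of the thresholds or were not called in either, 74 lost and 36 gained a call, and 6 reversed. With no filter on low counts, hindbrain GLASTneg cells had 1 of the 8 genes called at each stage (*Sox10* at E1, *Pdgfra* at E4, *Gpr17* at Ech), spinal cord 1 at E1 (*Sox10*) and Ech against E4 2 (*Pdgfra*, *Gpr17*). DESeq2's Wald test called 1 in hindbrain GLASTneg cells at E4 (*Pdgfra*), 0 for spinal cord Ech against E4 and 1 in the FVB/N libraries labelled forebrain GLASTneg (*Sox10*). Fitted with the groups compared alone, hindbrain GLASTneg cells had 1, 2 and 2 called at E1, E4 and Ech, hindbrain GLASTpos cells 3 at Ech, spinal cord 1 at E1, Ech against E4 3, and the differences in response 1 at E4 (*Pdgfra*) and 2 at Ech (*Cspg4*, *Nkx2-2*). With the sheet number as a term there were 1 in spinal cord at E4 (*Bcas1*), 0 for Ech against E4, 3 between the hindbrain controls and 0 for the difference in response at Ech, and over sheet numbers of at least 57 alone spinal cord had 1 at E1 (*Pdgfra*). The causes were not tested.

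The replicate number as a block called 1 gene in hindbrain GLASTneg cells at E4 (*Pdgfra*, 2.47, adjusted p = 0.0323) and left the other counts of called genes within 1.5 times. Deviations correlated at -0.00436 on average over 340 pairs with the same replicate number and at 0.000974 over 1654 others. The titles hold another number in brackets, whose meaning is not stated, that recurs across the populations of a stage and never across stages. It joins 64 of the 66 EAE libraries into 24 blocks. Deviations correlated at 0.0381 on average over 49 pairs that share it (8 of them over 0.1) and at -0.00562 over 314 others of the same stage. A block on this number, chosen after seeing the data, allows only comparisons across populations. Over all genes tested it called 1 gene for the difference in response at E4 (*Pdgfra*, -1.73, adjusted p = 0.0298) and 3 at Ech (*Cspg4*, *Nkx2-2* and *Bcas1*), but this fit estimated no spread of single genes beyond a trend with their level, so its p-values may be too small. With edgeR's filterByExpr, where gene-wise spread was estimated, it called 0 and 1 (*Nkx2-2*), and calls were lost for *Cspg4* (adjusted p = 0.0608) between the hindbrain controls and for *Cspg4* (adjusted p = 0.0888) and *Olig2* (adjusted p = 0.0991) between the spinal cord and hindbrain controls.

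Under the names of the study's list, the FVB/N groups exchange their values: 0 of the 8 genes were called for hindbrain GLASTneg and 3 for hindbrain GLASTpos (*Olig2* at -2.62), and for spinal cord GLASTneg the log2 fold changes became 2.57 (*Sox10*), 1.63 (*Olig1*), 1.41 (*Olig2*) and 3.94 (*Gpr17*). *Gpr17* in the libraries labelled hindbrain GLASTneg (spinal cord GLASTneg in the list) went from -0.10 without replicate 1 to 4.51 without replicate 2.

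Leaving out 1 library at a time gave these counts of the 8 genes called. Hindbrain GLASTneg had 0 to 0 at E1, 0 to 1 at E4 and 0 to 0 at Ech. Hindbrain GLASTpos had 0 to 0, 0 to 1 and 1 to 5. Spinal cord had 0 to 1, 2 to 3 and 5 to 6, and 0 to 1 for Ech against E4. Control comparisons had 4 to 5 in hindbrain and 7 to 7 against spinal cord, and differences in response 0 to 0, 0 to 0 and 0 to 1. FVB/N groups had 0 to 1 (forebrain GLASTneg), 0 to 0 (forebrain GLASTpos, in the study's list hindbrain GLASTneg), 3 to 4 (hindbrain GLASTneg, in the list spinal cord GLASTneg), 0 to 0 (hindbrain GLASTpos, in the list forebrain GLASTpos) and 3 to 3 (spinal cord GLASTneg, in the list hindbrain GLASTpos), and cultured cells 1 to 3.

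Counts over all genes moved by more than 1.5 times in places. Spinal cord at E4 had 4184 genes called, 2106 with the sheet number as a term and 967 over sheet numbers of at least 57, at Ech 3436 and 2257 over those numbers, at E1 1440, 569 over those numbers and 847 with the groups compared alone, and Ech against E4 738 and 264 with the term. Hindbrain GLASTneg had 150, 170 and 45 called at E1, E4 and Ech, and 398, 425 and 173 with the groups compared alone. DESeq2 called 238 and 92 at E1 and Ech, and no filter 239 and 97. Hindbrain GLASTpos had 347 at E1 and 306 at Ech, and 567 and 678 by DESeq2 (480 at Ech with no filter). The hindbrain controls had 2438, and 1606 with the term. The spinal cord and hindbrain controls differed in 979, and in 597 with the bracket number as a block and filterByExpr. The differences in response had 50 at E1 (242 by DESeq2, 81 by filterByExpr, 115 with no filter, 403 with the bracket number as a block and 30 with that block and filterByExpr) and 1848 at E4 (787 with the term). FVB/N libraries labelled forebrain GLASTpos, in the study's list hindbrain GLASTneg, had 290, 167 by DESeq2 and 165 by filterByExpr. Cultured cells had 5424, and 3614 by filterByExpr. Depth limits *Pdgfra*, *Gpr17* and *Cspg4* in hindbrain and FVB/N libraries, where many values were a few counts.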
